A study of Mus musculus with 19 samples.

Results

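The genes described here are 9 markers of blood-borne myeloid cells, *S100a8*, *S100a9*, *Retnlg*, *Csf3r*, *Cxcr2*, *Mmp9*, *Ly6c2*, *Ccr2* and *Plac8*, out of 56980 genes in a table of raw read counts. They were chosen by symbol as markers of neutrophils and of inflammatory monocytes, and each symbol matched 1 Ensembl gene of the table through the GENCODE mouse annotation. All 9 passed the filter on low counts, which kept 18739 genes. The study asked whether loss of *PARK7*/DJ-1, a protein linked to familial Parkinson's disease, changes how brain myeloid cells respond to inflammation in the body. Each of the 19 libraries came from 1 male mouse of 3 to 4 months. The cells were taken from the perfused brain, without olfactory bulb and cerebellum, by magnetic beads against CD11b (MACS).

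There were 4 groups, namely wildtype mice given PBS (n = 4), wildtype mice given LPS (n = 5), *PARK7*/DJ-1 KO mice given PBS (n = 5) and KO mice given LPS (n = 5). PBS-injected mice are called baseline. LPS, the bacterial endotoxin that activates TLR4, was injected into the peritoneum at 4 µg/g body weight, and cells were isolated 6 h later. KO mice carry a gene-trap allele of *Park7* in every cell of the body on a C57BL/6NCrl background, and wildtype mice were their littermates. A genotype difference can therefore not be assigned to loss of the gene in a particular cell type. The labels call the isolated cells primary microglia. CD11b is also carried by neutrophils and monocytes, so the selection itself does not remove these cells.

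Neutrophils are short-lived granulocytes that leave the bone marrow and cross inflamed vessel walls within hours. They carry CXCR2, the receptor of the chemokines CXCL1 and CXCL2, and the receptor of G-CSF, the growth factor that drives their production, and they store S100A8/S100A9 (calprotectin) and MMP9. Inflammatory monocytes are Ly6C-high cells that use CCR2, the receptor of CCL2, to leave the marrow and enter tissue. In a bulk library, more cells of a type cannot be told apart from more RNA per cell, and this holds for every value below.

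The libraries held 11936364 to 22788884 counts (median 17211939), so that 3 counts in a library corresponded to 0.132 to 0.251 counts scaled to library size (CPM). That limit covers counting error only. The targeted gene followed the labels, with *Park7* at 22.3 ± 2.08 CPM (SD, n = 4) in wildtype and 1.66 ± 0.961 CPM (n = 5) in KO mice at baseline, and at 25.2 ± 3.90 and 3.44 ± 1.72 CPM (n = 5 each) after LPS. Microglial genes were abundant in every library. The 9 measured genes of a microglia list (*P2ry12*, *Tmem119* and others) summed to 25231 to 40536 CPM at baseline and 10553 to 16988 CPM after LPS. All 9 were lower after LPS in both genotypes. Genes of neurons, astrocytes and oligodendrocytes summed to 631 to 6824 CPM, and in each group 1 library was highest, namely KO LPS 1, wildtype PBS 2, KO PBS 1 and wildtype LPS 2. In these 4 libraries *S100a8* was the lowest or next to lowest of its group, and the part of these cells in the results was not tested beyond leaving the libraries out. Lymphoid genes summed to at most 12.7 CPM, and *Cd3e*, a subunit of the T cell receptor complex, had at most 2 counts in a library.

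*Ly6c2* is shown first as sequence, because its count depends on telling its reads from those of *Ly6c1*, a neighbouring gene on chromosome 15 that endothelial cells express. The first 80 bases of the coding sequences (GENCODE M39 canonical transcripts, GRCm39) are given from the start codon, with the bases that differ in capitals.

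Ly6c1: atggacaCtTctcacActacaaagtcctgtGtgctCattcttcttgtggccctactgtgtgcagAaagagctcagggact

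Ly6c2: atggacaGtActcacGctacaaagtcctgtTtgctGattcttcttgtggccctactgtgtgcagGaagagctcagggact

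Counting from 1 at the A of the start codon, with the *Ly6c1* base first, the differences in this stretch are C8G, T10A, A16G, G31T, C36G and A65G. Over the whole coding sequence, 384 of 393 bases are identical (97.7%), and the other 3 differences are G254A, T327C and G376A. Of the 763 windows of 75 bases in the *Ly6c2* transcript, 164 (21.5%) also occur in a transcript of *Ly6c1*. A read from such a window can be assigned only through its mate, so the level of *Ly6c2* carries this uncertainty.

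*S100a8* and *S100a9* are shown as promoters, because the 2 genes lie close together on chromosome 3 and moved together across libraries. The 250 bases upstream of each start come from RefSeq (GRCm38.p6), in the direction of transcription, with a motif match in capitals. *Ly6c2* is added as a monocyte gene.

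S100a8, chr3:90668821-90669070, plus strand: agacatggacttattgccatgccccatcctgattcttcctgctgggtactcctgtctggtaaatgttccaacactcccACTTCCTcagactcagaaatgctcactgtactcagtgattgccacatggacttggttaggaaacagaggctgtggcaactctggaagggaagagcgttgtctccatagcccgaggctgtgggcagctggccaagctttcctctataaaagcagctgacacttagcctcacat

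S100a9, chr3:90695722-90695971, minus strand: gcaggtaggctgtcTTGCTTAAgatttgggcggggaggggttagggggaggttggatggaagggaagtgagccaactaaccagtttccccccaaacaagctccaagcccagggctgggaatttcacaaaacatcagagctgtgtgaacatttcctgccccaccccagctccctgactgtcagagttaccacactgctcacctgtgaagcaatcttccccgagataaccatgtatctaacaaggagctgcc

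Ly6c2, chr15:75111972-75112221, minus strand: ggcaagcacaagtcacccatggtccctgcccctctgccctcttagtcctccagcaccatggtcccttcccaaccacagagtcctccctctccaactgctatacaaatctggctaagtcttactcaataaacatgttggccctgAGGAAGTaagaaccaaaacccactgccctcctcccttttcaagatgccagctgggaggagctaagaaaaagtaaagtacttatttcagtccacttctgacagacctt

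Motifs were searched as letters on both strands in the 250 bases upstream of each start. A PU.1 motif (AGGAAGT) was found in *S100a8*, on the opposite strand 172 bases before the start, and in *Ly6c2*, 107 bases before the start shown. A second start listed for *Ly6c2* had 2 such matches, 141 and 7 bases before it. The motif occurs in 7.69% of 32851 mouse promoters of the same length. A C/EBP motif (TTGCNNAA, 9.56% of promoters) was found in *S100a9* 236 bases and in *Retnlg* 246 bases before the start, and 12 bases before 1 of 2 starts of *Plac8*. *Cxcr2*, *Csf3r*, *Ccr2* and the other *Plac8* start held none of the 6 motifs searched, which included STAT (TTCNNNGAA, 7.02%), AP-1 (TGANTCA, 6.75%), NF-kB (1.41%) and ISRE (2.98%). *Mmp9* had no entry. These matches describe letters only.

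After LPS, 7 of the 9 markers rose in wildtype and 8 of 9 in KO mice, while 1, *Csf3r*, fell in both genotypes. The threshold was an adjusted p under 0.05 in edgeR's quasi-likelihood test and a |log2FC| of at least 0.5. Of all genes tested, 18.4% rose and 17.4% fell in wildtype mice by that threshold, and 20.1% rose and 19% fell in KO mice. The median log2FC of the 9 was 2.12 in wildtype and 2.03 in KO mice, against −0.06 and −0.01 over all genes tested. The rises were widest for *Plac8*, *Ly6c2* and *Cxcr2*, and smallest for *Ccr2*. Values per library are given below in CPM after TMM normalization, in the order of the library numbers of each group.

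**Figure D1:**
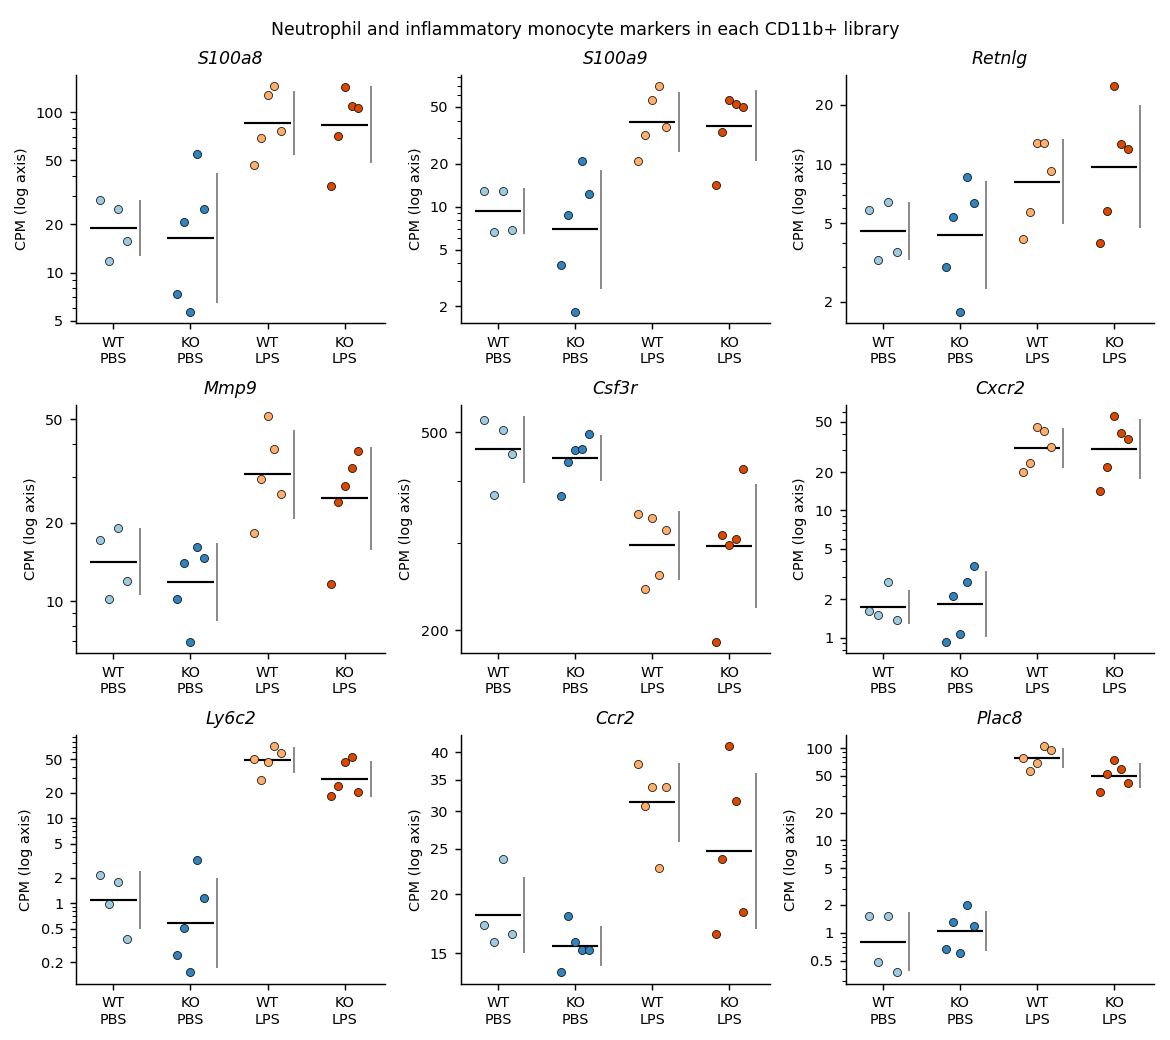
Level of each of the 9 markers in each library, in CPM on a log axis, by genotype and treatment. Points are mice, black lines geometric means and grey bars ± 1 SD on the log2 scale. *Cxcr2*, *Ly6c2* and *Plac8* separated LPS from PBS in every library of both genotypes, *Csf3r* lay lower after LPS, and KO and wildtype points overlapped in all panels.

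*S100a8*, which encodes 1 chain of the calcium-binding dimer calprotectin, stood at 28.2, 11.9, 25.0 and 15.7 CPM in wildtype mice at baseline and at 47.1, 69.0, 128, 146 and 75.8 CPM after LPS. In KO mice it stood at 7.36, 20.7, 5.68, 54.7 and 25.0 CPM at baseline and at 34.8, 70.8, 144, 109 and 106 CPM after LPS. The wildtype groups did not overlap, whereas in KO mice the baseline library KO PBS 4 (54.7 CPM) exceeded KO LPS 1 (34.8 CPM). By edgeR's quasi-likelihood test the log2FC was 2.20 (SE 0.57, adjusted p = 0.00394, 4.60-fold) in wildtype and 2.03 (SE 0.52, adjusted p = 0.00322, 4.09-fold) in KO mice. Without KO PBS 4 the KO value was 2.66 (6.30-fold).

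*S100a9*, the partner chain, stood at 12.8, 6.66, 12.9 and 6.82 CPM in wildtype mice at baseline and at 20.7, 31.5, 55.3, 69.9 and 35.8 CPM after LPS. The corresponding KO values were 3.92, 8.72, 1.83, 20.7 and 12.3 CPM, and 14.0, 33.5, 55.7, 52.1 and 49.5 CPM. As for *S100a8*, the groups separated in wildtype mice and overlapped in KO mice through KO PBS 4. The log2FC was 2.12 (SE 0.56, adjusted p = 0.00457) in wildtype and 2.11 (SE 0.51, adjusted p = 0.00222) in KO mice by edgeR's quasi-likelihood test. The ratio of *S100a8* to *S100a9* counts stayed within 1.78 to 3.11 over all 19 libraries. Its mean was 2.06 ± 0.24 (SD, n = 4) and 2.20 ± 0.10 (n = 5) in wildtype mice at baseline and after LPS, and 2.41 ± 0.49 and 2.28 ± 0.23 (n = 5 each) in KO mice.

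*Retnlg*, a resistin-like secreted protein of neutrophils, was the marker with the least certain rise. Baseline values were 5.83, 3.27, 6.43 and 3.60 CPM in wildtype and 3.00, 5.40, 1.78, 8.58 and 6.37 CPM in KO mice. After LPS they were 4.17, 5.72, 12.8, 12.8 and 9.28 CPM in wildtype and 3.99, 5.77, 25.0, 12.6 and 11.9 CPM in KO mice. LPS and baseline libraries overlapped in both genotypes, and KO LPS 3 was the highest of all. In wildtype mice the log2FC of 0.90 (95% interval −0.16 to 1.97) did not pass edgeR's quasi-likelihood test (adjusted p = 0.172), and in KO mice it was 1.23 (adjusted p = 0.0394). Without KO LPS 3 the KO value was 0.77 (adjusted p = 0.182), and leaving out KO LPS 4 or 5, or KO PBS 1, 2 or 3, also ended the call.

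*Csf3r*, the G-CSF receptor, was the only one of the 9 to fall. It stood at 529.7, 374, 506 and 453 CPM in wildtype mice at baseline and at 342, 242, 336, 258 and 318 CPM after LPS. In KO mice it went from 373, 435, 459.7, 462 and 497 CPM to 189, 311, 297, 305 and 423 CPM. The wildtype groups did not overlap, and among KO mice only KO LPS 5 reached into the baseline range. The log2FC was −0.64 (SE 0.17, adjusted p = 0.00603) in wildtype and −0.55 (SE 0.17, adjusted p = 0.0109) in KO mice by edgeR's quasi-likelihood test. In KO mice it came under the fold minimum without KO LPS 1 (−0.40) or without KO PBS 5 (−0.49). Its fall ran with that of the microglia list, whose genes fell by 0.73 (*Csf1r*) to 5.09 (*Gpr34*) on the log2 scale in wildtype mice, each by more than *Csf3r*. Of 7 genes of macrophages at the brain borders, 5 fell in both genotypes, with a median of −1.17 in wildtype mice. The part of either cell type in the *Csf3r* reads was not tested.

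*Cxcr2*, the neutrophil receptor of CXC chemokines, was at 1.61, 1.51, 2.76 and 1.36 CPM in wildtype mice at baseline and at 20.1, 23.6, 45.1, 42.2 and 31.7 CPM after LPS. KO mice showed 0.92, 2.12, 1.07, 2.72 and 3.67 CPM at baseline and 14.1, 22, 55.3, 41.0 and 36.7 CPM after LPS. Every LPS library lay above every baseline library in both genotypes, with the lowest LPS value (14.1 CPM) well above the highest baseline value (3.67 CPM). The log2FC was 4.17 (SE 0.47, adjusted p = 9.55e-07, 17.9-fold) in wildtype and 4.00 (SE 0.42, adjusted p = 3.09e-07, 16.0-fold) in KO mice by edgeR's quasi-likelihood test.

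*Mmp9*, the gelatinase of neutrophil granules that cleaves matrix collagen, was at 17.1, 10.2, 19.2 and 11.9 CPM in wildtype mice at baseline and at 18.2, 29.4, 51.4, 38.4 and 25.7 CPM after LPS. In KO mice it was at 10.2, 14.0, 6.95, 16.1 and 14.6 CPM at baseline and at 11.6, 24.0, 27.7, 32.4 and 37.8 CPM after LPS. The lowest LPS library of each genotype lay within the baseline range. The log2FC was 1.16 (SE 0.34, adjusted p = 0.00915) in wildtype and 1.11 (SE 0.31, adjusted p = 0.00683) in KO mice by edgeR's quasi-likelihood test. Of 5 genes for inhibitors of MMP9-type proteases and for receptors of S100A8/S100A9, *Timp1*, an inhibitor of MMP9, rose from 0 to 3 counts per library at baseline to 21 to 76 counts after LPS. *Timp2* fell by 1.93 in wildtype and by 1.83 in KO mice on the log2 scale. *Tlr4*, which binds LPS and S100A8/S100A9, fell by 1.06 and 1.09, and *Timp3* and *Ager* did not pass the test.

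*Ly6c2*, the Ly6C surface protein of inflammatory monocytes, was close to the counting limit in several baseline libraries. Wildtype values were 2.14, 0.968, 1.77 and 0.372 CPM at baseline and 49.7, 28.1, 45.7, 70.7 and 59.5 CPM after LPS. KO values were 0.245, 0.508, 0.152, 3.24 and 1.13 CPM at baseline and 18.3, 24.0, 45.5, 52.4 and 20.3 CPM after LPS. The treatments did not overlap in either genotype. The log2FC was 5.26 (SE 0.69, adjusted p = 5.73e-06, 38.2-fold) in wildtype and 4.91 (SE 0.62, adjusted p = 2.9e-06, 30.1-fold) in KO mice by edgeR's quasi-likelihood test. KO PBS 4 held the highest baseline value of all, and without it the KO log2FC was 5.95 (61.9-fold).

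*Ly6c1*, which shares the windows described above, did not pass the test, with a log2FC of 0.15 (adjusted p = 0.868) in wildtype and −0.06 (adjusted p = 0.946) in KO mice by edgeR's quasi-likelihood test. At baseline *Ly6c2* made up 0.394% to 8.78% of the reads of the pair, and after LPS 18.7% to 86.2%. The library KO LPS 5 held 45 reads of *Ly6c1* and 281 of *Ly6c2*, so that *Ly6c2* was 86.2% of the pair (exact 95% binomial interval 82.0% to 89.8%, which covers counting error only). This library also had the lowest sum of the 5 endothelial genes other than *Ly6c1* in its group, at 70.3 CPM against 341 to 685 CPM in the other 4, and its part in the share was not tested. In KO PBS 1 the counts were 1012 and 4, or 0.394% (0.107% to 1.00%). The 2 genes thus did not rise together in the counts.

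**Figure D2:**
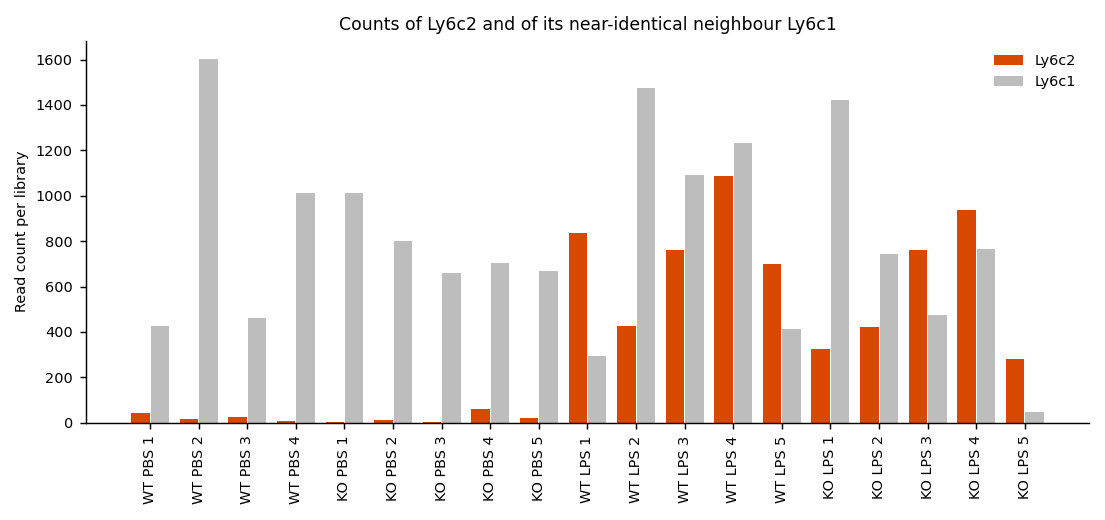
Reads counted on *Ly6c2* and on *Ly6c1* in each library, as bars from 0. *Ly6c2* had 3 to 62 reads per library at baseline and 281 to 1089 after LPS, while *Ly6c1* ranged from 426 to 1603 at baseline and from 45 to 1474 after LPS.

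*Ccr2*, the CCL2 receptor, rose least among the markers that rose. It was at 17.2, 15.9, 23.8 and 16.5 CPM in wildtype mice at baseline and at 37.8, 30.7, 33.9, 22.7 and 33.8 CPM after LPS. In KO mice it was at 13.7, 18, 15.9, 15.3 and 15.2 CPM at baseline and at 16.5, 23.8, 41.2, 31.5 and 18.3 CPM after LPS. One LPS library of each genotype (wildtype LPS 4 and KO LPS 1) lay within its baseline range. The log2FC was 0.79 (SE 0.23, adjusted p = 0.00812, 1.73-fold) in wildtype and 0.75 (SE 0.21, adjusted p = 0.00676, 1.68-fold) in KO mice by edgeR's quasi-likelihood test.

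*Plac8*, a small cysteine-rich protein of monocytes and other leukocytes, showed the widest rise. It was at 1.51, 0.484, 1.51 and 0.372 CPM in wildtype mice at baseline and at 78.3, 55.9, 69.3, 105 and 94.4 CPM after LPS. In KO mice it was at 0.674, 1.29, 0.609, 1.99 and 1.19 CPM at baseline and at 33.3, 52.3, 73.8, 59.8 and 42.4 CPM after LPS. No LPS library came near the baseline range. By edgeR's quasi-likelihood test the log2FC was 6.36 (SE 0.44, adjusted p = 3.79e-09, 82.0-fold) in wildtype and 5.49 (SE 0.38, adjusted p = 2.02e-09, 45.0-fold) in KO mice.

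Libraries of LPS and baseline did not overlap for 6 markers in wildtype mice, namely *S100a8*, *S100a9*, *Csf3r*, *Cxcr2*, *Ly6c2* and *Plac8*, where 37.8% of all genes tested did not overlap. In KO mice they did not overlap for 3, *Cxcr2*, *Ly6c2* and *Plac8*, where the share over all genes was 32.8%. With the 4 libraries richest in neural genes left out, 7 markers rose in wildtype and 8 in KO mice, as with all libraries, but *Csf3r* in KO mice (−0.46) was then under the fold minimum.

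**Figure D3:**
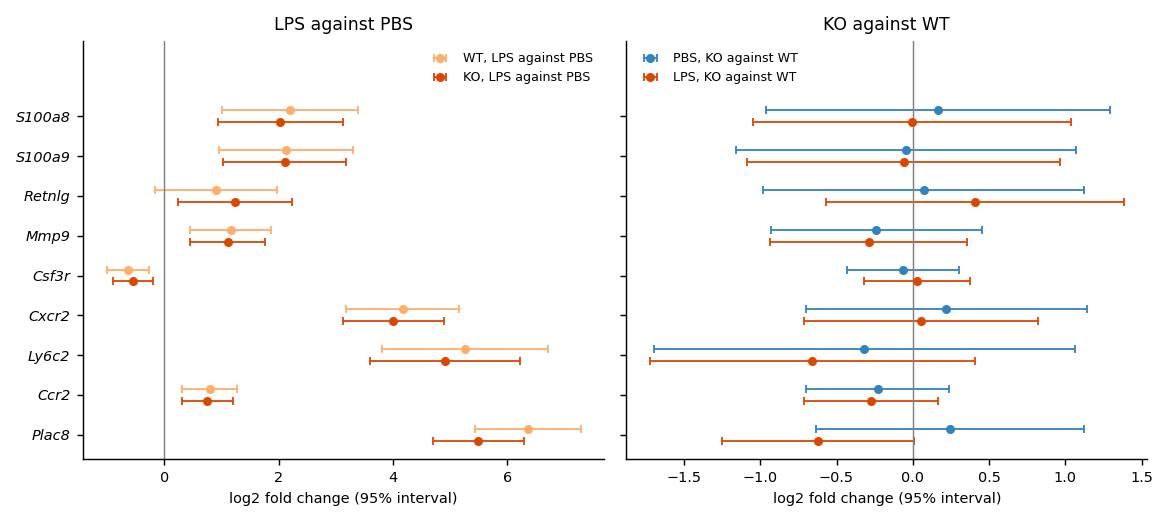
Log2FC of each marker with its 95% interval from edgeR, for LPS against PBS in wildtype and KO mice on the left and for KO against wildtype mice at baseline and after LPS on the right. The LPS values run from −0.64 (*Csf3r*) to 6.36 (*Plac8*), and all KO against wildtype intervals include 0.

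Compared per length of transcript, the order of the markers changed with LPS. In wildtype mice at baseline *Csf3r* led with 133 ± 19.6 CPM per kb (SD, n = 4), followed by *S100a8* (41.1 ± 15.6), *S100a9* (17.1 ± 6.16) and *Retnlg* (7.93 ± 2.63), and these 4 neighbours did not overlap. *Mmp9* (4.60 ± 1.33) overlapped with *Retnlg* above it and with *Ccr2* (3.20 ± 0.638) below it. *Ly6c2* (1.57 ± 0.949), *Plac8* (1.30 ± 0.842) and *Cxcr2* (0.595 ± 0.209) were lowest, with each overlapping its neighbour among these 3. After LPS in wildtype mice *S100a8* led with 189 ± 84.8 CPM per kb (n = 5), ahead of *Plac8* (108.3 ± 26.2), *Csf3r* (85.3 ± 13.2), *S100a9* (74.5 ± 34.5) and *Ly6c2* (60.6 ± 19.1). Each of these 5 overlapped with the next, and all lay above *Retnlg* (14.8 ± 6.56), *Cxcr2* (10.7 ± 3.63), *Mmp9* (10.3 ± 4.02) and *Ccr2* (5.55 ± 0.985). In KO mice *Csf3r* led at baseline (127 ± 13.1) and *S100a8* after LPS (189 ± 84.2), as in wildtype mice. *Plac8* stood at 70.3 ± 21.0 CPM per kb in KO mice after LPS, next to *S100a9* at 71.6 ± 30.2.

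KO and wildtype mice were then compared within each treatment, with the unadjusted p under 0.05 and |log2FC| of at least 0.5 that the study used for this contrast. None of the 9 markers passed it after LPS, where 1.31% of all genes tested did, or at baseline, where 0.800% did. DESeq2 also called none. Libraries of the 2 genotypes overlapped for every marker, against 0.219% of all genes without overlap after LPS and 0.966% at baseline. Adjusted p-values were near 1 for all 9 in edgeR's quasi-likelihood test.

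The intervals show what sizes these data leave possible. After LPS, *S100a8* averaged 93.1 ± 41.7 CPM in wildtype and 92.8 ± 41.4 CPM in KO mice (SD, n = 5 each), with a KO against wildtype log2FC of −0.00 and a 95% interval of −1.05 to 1.04. *Cxcr2* averaged 32.5 ± 11.0 and 33.8 ± 16.2 CPM (0.05, −0.71 to 0.82). *S100a9* (−0.06, −1.08 to 0.97), *Retnlg* (0.41, −0.57 to 1.38) and *Mmp9* (−0.29, −0.94 to 0.36) had intervals that also included 0. *Csf3r* was measured most closely (0.03, −0.32 to 0.37).

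The 3 monocyte markers had lower means in KO mice after LPS, with none past the threshold. *Plac8* averaged 80.5 ± 19.5 CPM in wildtype and 52.3 ± 15.6 CPM in KO mice, and the libraries overlapped (55.9 to 105 and 33.3 to 73.8 CPM). Its log2FC was −0.62 (95% interval −1.25 to 0.01, unadjusted p = 0.0525 in edgeR's quasi-likelihood test fitted across all genes). *Ly6c2* averaged 50.7 ± 15.9 and 32.1 ± 15.7 CPM (−0.66, −1.72 to 0.41), and *Ccr2* 31.8 ± 5.64 and 26.3 ± 10.2 CPM (−0.28, −0.72 to 0.17). The call on *Plac8* was close to the threshold. It passed with no low-count filter (unadjusted p = 0.0397), with total counts in place of TMM (unadjusted p = 0.0378) and with only these 2 groups fitted (unadjusted p = 0.0138), all from edgeR across all genes. It also passed without KO LPS 3, KO PBS 4, wildtype LPS 2, or wildtype PBS 1, 2 or 4.

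At baseline the log2FC of KO against wildtype mice ran from −0.32 for *Ly6c2* (95% interval −1.70 to 1.06) to 0.24 for *Plac8* (−0.63 to 1.12). *S100a8* averaged 20.2 ± 7.68 CPM in wildtype (n = 4) and 22.7 ± 19.7 CPM in KO mice (n = 5), the wider SD coming with KO PBS 4 at 54.7 CPM. Without KO PBS 4, *Ly6c2* passed as lower in KO mice (−1.36, unadjusted p = 0.0355 in edgeR across all genes). For none of the 9 did the difference in LPS response between the genotypes pass the interaction test, by an adjusted p under 0.05 in edgeR or in DESeq2. By unadjusted p under 0.05, 0 of the 9 passed in edgeR, against 0.961% of all genes. *Plac8* had the smallest p, with an interaction of −0.87 on the log2 scale (95% interval −1.95 to 0.22, unadjusted p = 0.11 in edgeR across all genes).

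The markers differed in how far mice of 1 group lay apart. The pooled SD of log2 CPM within groups was 0.98 for *Ly6c2*, 0.92 for *S100a9*, 0.91 for *S100a8* and 0.82 for *Retnlg*, against a median of 0.40 over all genes tested. *Cxcr2* (0.66), *Plac8* (0.60) and *Mmp9* (0.55) were also above that median. *Ccr2* (0.35) and *Csf3r* (0.28) were below it.

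Of the neutrophil markers, *S100a9*, *Cxcr2*, *Retnlg* and *Mmp9* varied with *S100a8* between mice. Over the 10 LPS libraries, log2 CPM of *S100a8* correlated with that of *S100a9* (Pearson r = 0.99, Spearman rho = 1.00), *Cxcr2* (r = 0.97, rho = 0.95), *Retnlg* (r = 0.93, rho = 0.99) and *Mmp9* (r = 0.88, rho = 0.78). Adjusted p for r was 0.00011 for the first 3 and 0.00351 for *Mmp9* (two-sided permutation tests, adjusted over 20 relations). The unadjusted p of the first 3, 2e-05, is the smallest that these permutations can give. Without the 2 libraries farthest from the median of *S100a8*, r was 0.97, 0.93, 0.88 and 0.61 in the same order, so the relation with *Mmp9* no longer passed. After subtracting each genotype's mean, r was 0.99, 0.97, 0.94 and 0.90.

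For the monocyte markers and for *Csf3r*, the correlation with *S100a8* after LPS did not pass the test. It was 0.50 with *Ly6c2* (rho = 0.52, adjusted permutation p = 0.204), 0.49 with *Plac8* (rho = 0.50, adjusted permutation p = 0.205), 0.29 with *Ccr2* (rho = 0.25, adjusted permutation p = 0.424) and 0.43 with *Csf3r* (rho = 0.08, adjusted permutation p = 0.286). *Ccr2* gave r = 0.66 with *Ly6c2* (adjusted permutation p = 0.0827) and 0.64 with *Plac8* (adjusted permutation p = 0.0849). Without the 2 farthest libraries these became 0.16 and 0.03, so they rested on those libraries.

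Over the 9 baseline libraries *S100a8* correlated with *S100a9* (r = 0.97, rho = 0.95, adjusted exact permutation p = 0.00011) and *Retnlg* (r = 0.96, rho = 0.93, adjusted exact permutation p = 0.000132). *Ly6c2* also followed *S100a8* there (r = 0.90, rho = 0.93, adjusted exact permutation p = 0.00351), as did *Mmp9* (r = 0.88, rho = 0.88, adjusted exact permutation p = 0.00387), *Cxcr2* (r = 0.80, rho = 0.78, adjusted exact permutation p = 0.0193) and *Plac8* (r = 0.77, rho = 0.80, adjusted exact permutation p = 0.0341). *Ly6c2* held r = 0.76, *Mmp9* 0.73 and *Cxcr2* 0.58 without the 2 farthest libraries, and none of these 3 then passed. *Plac8* (0.86), *S100a9* (0.97) and *Retnlg* (0.95) did. *Csf3r* (r = 0.56, rho = 0.70, adjusted exact permutation p = 0.183) and *Ccr2* (r = 0.31, rho = 0.15, adjusted exact permutation p = 0.424) did not follow *S100a8* past the test. *Ccr2* gave r = 0.33 with *Ly6c2* and 0.35 with *Plac8* at baseline (adjusted exact permutation p = 0.424 for both).

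**Figure D4:**
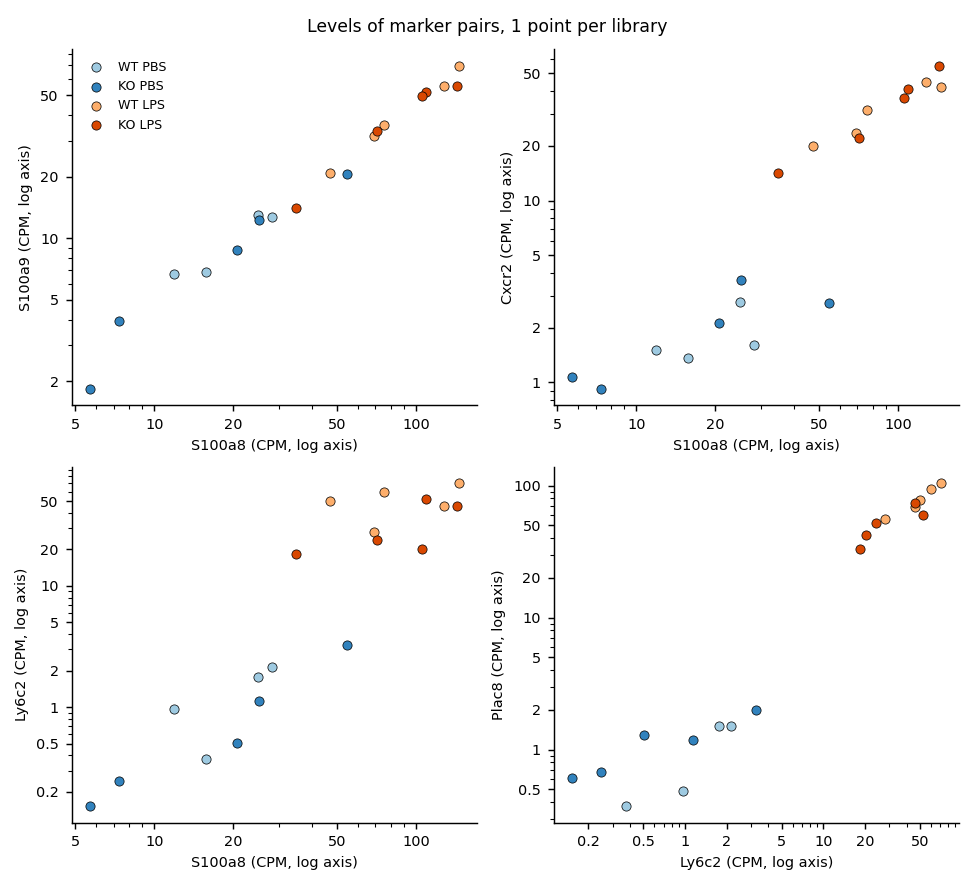
Pairs of markers across the 19 libraries on log axes of CPM, with 1 point per mouse and colours for the 4 groups. *S100a8* and *S100a9* lie on 1 line over both treatments, and *S100a8* against *Cxcr2* forms separate LPS and baseline clouds.

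The genes most like *S100a8* over the 10 LPS libraries, by r of log2 CPM after subtracting genotype means among 18738 genes, were *S100a9* (0.99), *Mxd1* (0.97), *Cxcr2* (0.97), *Thbs1* (0.96) and *Ifitm6* (0.95). Those most like *Ccr2* were *Zfp677* (0.93), *9630010A21Rik* (0.92), *Gm33869* (0.92), *Gm26631* (0.91) and *Phf11* (0.90). *Ifitm6* is on the monocyte list. For *Ccr2* the genes of that list that came closest were *F13a1* (rank 15, 0.87) and *Clec12a* (rank 28, 0.83), chosen after their values were seen. The tested genes of the list ran from −0.01 (*Fn1*) to that 0.87. Over the 9 baseline libraries *F13a1* gave 0.45 and *Clec12a* 0.67 with *Ccr2*. These values of r are a description over 10 LPS or 9 baseline libraries, which share their depth and cell mixture, and carry no test.

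Other neutrophil genes were read from a list of 27, of which 25 were tested. Of these, 18 rose in wildtype and 18 in KO mice after LPS, 0 fell in wildtype and 1 in KO mice, and the median log2FC was 3.58 and 3.09. Between KO and wildtype mice, 0 of the 25 passed the threshold after LPS (median log2FC −0.26). At baseline only *Mrgpra2b* did, with 0 reads in all wildtype libraries. It had 3 reads in KO PBS 2 and 6 in KO PBS 4, and 0 in the other KO baseline libraries. The gene passed the filter through its LPS counts (2 to 24 per library), so this call rests on very few reads. *Fpr1*, a receptor of bacterial formyl peptides, went from 1.86 to 55.2 CPM on average in wildtype and from 1.37 to 44.1 CPM in KO mice. *Trem1*, an activating receptor, rose by 5.13 in wildtype and 5.00 in KO mice on the log2 scale, and *Il1r2*, a decoy receptor of interleukin-1, by 4.03 and 3.79. *Lcn2* (6.09 and 5.75) and *Hp* (5.69 and 5.40) also rose, and both are made by other cells in inflammation too. *Mmp8*, the neutrophil collagenase of granules, went from 6.19 to 41.3 CPM in wildtype and from 4.68 to 42.7 CPM in KO mice.

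Other genes of granule proteins, which neutrophil precursors transcribe in the marrow, formed most of the remainder. *Elane* (0.21 in wildtype and −1.42 in KO mice), *Prtn3* (0.56 and −0.44), *Ltf* (0.23 and −0.42), *Camp* (0.61 and −0.33) and *Ngp* (1.40 and 0.71) did not pass the test in either genotype. Their KO values depend on KO PBS 4. It held 64 reads of *Elane* (1 to 12 in the other KO baseline libraries), 38 of *Prtn3* (2 to 8) and 1109 of *Ltf* (116 to 407). It also held 160 of *Camp* (8 to 43) and 1517 of *Ngp* (156 to 513). *Mpo* gave 0.10 in wildtype mice and fell by 2.88 in KO mice (adjusted p = 0.0282 in edgeR's quasi-likelihood test), but not without KO PBS 4, which held 214 of its reads at 11.2 CPM. *Ly6g*, the surface antigen that defines mouse neutrophils, was at 0.740 ± 0.354 CPM (n = 4) and 0.940 ± 0.633 CPM (n = 5) in wildtype mice at baseline and after LPS, with 3 to 30 counts in every library of the 4 groups, and did not pass either (0.36 and 0.28).

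Other monocyte genes were read from a list of 16, of which 14 were tested. In both genotypes 7 rose and 0 fell, and their log2FC had medians of 1.66 (wildtype) and 1.16 (KO). The 7 were *Ms4a4c* (5.79 in wildtype and 5.31 in KO mice), *Gpr141* (3.75 and 2.97), *Ifitm6* (2.94 and 2.63), *Chil3* (2.92 and 2.20), *Klra2* (2.81 and 2.50), *Treml4* (2.58 and 1.80) and *Vcan*, the proteoglycan versican (2.54 and 2.66). *F13a1*, a coagulation factor chain of monocytes and macrophages, gave −0.43 and −0.48, and *Fn1*, fibronectin, gave 0.50 in both. *Gpr141* was the only gene of this list past the KO against wildtype threshold after LPS, at 22.4 ± 7.14 CPM in wildtype and 13.3 ± 6.32 CPM in KO mice (n = 5 each, log2FC −0.75, unadjusted p = 0.0417 in edgeR across all genes). The KO against wildtype values of all 14 lay below 0 after LPS, from −0.75 to −0.08, with a median of −0.32 against 0.02 over all genes tested. The median of the 25 neutrophil genes was −0.26, so a median below 0 was not particular to the monocyte list. Genes of a list share the cell mixture of each library, so their signs are not separate results.

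**Figure D5:**
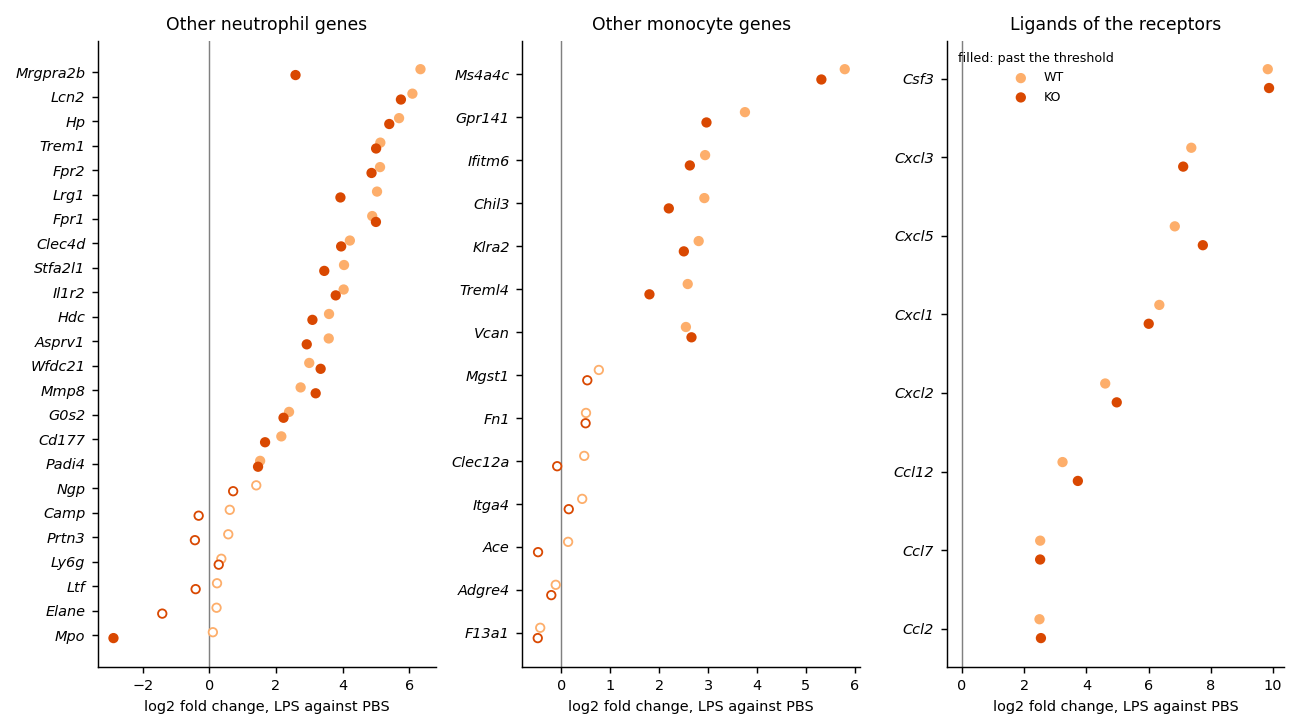
Log2FC of LPS against PBS for the genes reported from the neutrophil, monocyte and ligand lists in wildtype and KO mice, 1 point per gene and genotype, filled where the threshold was passed. All 8 ligand genes tested are filled, while among the granule genes *Mmp8* and *Lcn2* are filled on the right, *Ltf*, *Camp*, *Elane*, *Prtn3* and *Ngp* are open in both genotypes, and *Mpo* is filled in KO mice at −2.88.

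The ligands of the receptors among the 9 rose as well. From a list of 9, 8 were tested, and all 8 rose in both genotypes, at medians of 5.47 (wildtype) and 5.49 (KO) on the log2 scale. *Csf3*, *Cxcl3* and *Cxcl5* had at most 6 counts per library at baseline and passed the filter through their LPS counts. They could be called only as rises, and the medians include them. The 4 ligands with at least 10 counts in every library, *Cxcl2*, *Ccl2*, *Ccl7* and *Ccl12*, rose by 2.49 to 4.60 in wildtype and 2.51 to 4.97 in KO mice. *Csf3*, which encodes the G-CSF that binds the *Csf3r* product, had 0 to 6 counts per library at baseline and averaged 88.5 ± 54.7 CPM in wildtype and 65.8 ± 25.6 CPM in KO mice after LPS (SD, n = 5 each). The CXCR2 ligands *Cxcl1* (log2FC 6.34 in wildtype and 6.00 in KO mice) and *Cxcl2* (4.60 and 4.97) rose. *Cxcl3* and *Cxcl5* had at most 4 counts per library at baseline. After LPS they had 46 to 226 and 13 to 611 counts per library. The CCR2 ligands *Ccl2* (2.49 and 2.54), *Ccl7* (2.51 and 2.51) and *Ccl12* (3.23 and 3.72) rose after LPS, as did *Ccr2*. No ligand passed the KO against wildtype threshold after LPS or at baseline.

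Of 8 genes for adhesion and passage through vessel walls, 5 rose and 1 fell in both genotypes. *Icam1* (2.46 and 2.64) and *Vcam1* (2.51 and 2.30), which bind leukocyte integrins on activated endothelium, and *Itgal*, the integrin chain that pairs with ITGB2 to bind ICAM1 (3.81 and 3.25), rose, as did *Sele* and *Selp*. *Selplg*, the leukocyte ligand of the selectins, fell by 1.72 and 1.64 on the log2 scale. *Itgam*, which encodes CD11b itself, gave 0.25 in wildtype and 0.07 in KO mice and did not pass the test. *Selp*, the P-selectin of activated endothelium and platelets, was the 1 gene of the 8 past the KO against wildtype threshold after LPS, at 34.2 ± 17.9 CPM in wildtype and 16.9 ± 7.49 CPM in KO mice (n = 5 each, log2FC −1.02, unadjusted p = 0.0378 in edgeR across all genes). Its lowest libraries, KO LPS 5 (4.54 CPM) and wildtype LPS 1 (11.6 CPM), were also the lowest of their groups in summed endothelial genes (73.5 and 158 CPM). All 6 of these endothelial genes, *Ly6c1* included, had KO against wildtype values below 0 after LPS (−0.58 to −0.02) with none past the threshold, and their part in the *Selp* difference was not tested.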

How the data were processed

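For each mouse, the deposited table gives whole-number counts of reads on every Ensembl gene, which the authors neither normalized nor pooled. They sequenced ribosome-depleted, stranded total RNA as paired reads of 75 bases. The submitters' processing notes name cutadapt 0.17.4 and STAR 2.7.9a, on GRCm39 with an Ensembl annotation. The strand setting of the counting is not given in the sources used here.

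The tests were run with edgeR 4.0.16 under R 4.3.3. Low genes were removed by filterByExpr (at least 10 counts, total of at least 15), and libraries were scaled by TMM and fitted with 4 groups in 1 quasi-likelihood model, with Benjamini-Hochberg adjustment over 18739 genes. Log2 CPM used a prior count of 2. The study used DESeq2, which served as an alternative (1.42.0). Tests were checked on simulated counts. The labels give each library its own animal number, and each was 1 replicate. No pair within a group was alike within sampling noise (chi-square per degree of freedom at least 6.50). Replicate numbers of the labels name different mice, and p-values measure the spread between these mice.

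Gene names came from GENCODE M39. Named genes were the 9 markers, *Park7*, *Ly6c1*, genes of the lists and the 5 genes most like *S100a8* or *Ccr2*. Some genes of the lists count in their totals but are not reported here by name. The markers and lists were chosen with earlier results of these data known. Correlations used permutation tests (100000 resamples for the 10 LPS libraries, exact for the 9 baseline libraries). Alternatives were other filters, scalings, tools, fitted groups, a replicate block, and each library left out.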

Additional observations from a re-analysis of the deposited data

Results flagged for a closer look

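In groups of 4 or 5 mice, a library was marked where its gap to the next exceeded the 95% limit of Dixon's test. In the 212 combinations of gene and group tested, chance marks about 1 in 20. None of the 9 markers was marked. KO PBS 4 stood highest for *Ngp* (79.3 CPM, next library 26.8), *Chil3* (28.4, next 8.74), *Mpo* (11.2, next 1.43), *Camp* (8.37, next 2.32), *Klra2* (3.82, next 2.16), *Elane* (3.35, next 0.593) and *Prtn3* (1.99, next 0.432). The same library held the highest *S100a8*, *S100a9*, *Retnlg*, *Mmp9*, *Ly6c2* and *Plac8* of its group. *Fpr2* reached 47.8 CPM in wildtype LPS 4 (next 26.7) and *Stfa2l1* 2.15 CPM in KO LPS 3 (next 0.628). *Hdc* was highest in wildtype PBS 3, at 7.55 CPM (next 5.75). *F13a1* stood at 136 CPM in wildtype LPS 1 (next 95.2), *Fn1* at 296 CPM in KO PBS 1 (next 163) and *Ccl7* at 19.9 CPM in KO PBS 3 (next 11.6).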

How the results depend on the processing

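No called value reversed. The count of markers that rose was 7 in wildtype and 8 in KO mice, and ranged from 7 to 7 and 7 to 8 with 1 library left out. Markers different between KO and wildtype mice after LPS went from 0 to 1 (*Plac8*) with no low-count filter, with total counts only and with only the 2 groups fitted, and ranged from 0 to 1 with each library left out, as they did at baseline (*Ly6c2*). With at least 10 counts in every library, *Ly6c2* and *Plac8* were not tested, so that 5 markers rose in wildtype and 6 in KO mice, and 4 ligands rose in each genotype in place of 8, since only 4 were tested. Correlations with an adjusted p under 0.05 went from 10 to 6 of 20 without the 2 farthest libraries. With a replicate block, 7 markers rose in wildtype and 7 in KO mice (*Retnlg* 1.04, adjusted p = 0.0699 in edgeR's quasi-likelihood test), and no other count of rises changed. The rise of *Retnlg* in KO mice also lost its call with no low-count filter, with total counts only and with only the 2 groups fitted. Same-numbered mice are different animals, and the labels do not say whether they share a batch or litter. The main fit did not use the numbers, and the replicate block did. Deviations of same-numbered LPS and PBS libraries correlated at −0.04 to 0.58, over 0.1 in 7 of 9 pairs, and in 5 of 9 the best match had the same number. Of the single-marker values, 268 of 268 kept their call for LPS in wildtype mice, 255 of 268 in KO mice, 268 of 277 for KO against wildtype after LPS, 275 of 277 at baseline and 232 of 232 for the interaction. Values without a call that changed sign were counted as kept (28, 21 and 37 in the last 3). Depth limits *Ly6c2* at baseline, where a library held as few as 3 reads.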

Other observations

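Over the 9 baseline libraries, after subtracting genotype means, the genes most like *S100a8* were *S100a9* (r = 0.98), *Elane* (0.97), *Chil3* (0.97), *Gm42778* (0.97) and *Ngp* (0.97), a list chosen after its values were seen. *Elane* and *Ngp* encode granule proteins that neutrophil precursors make. KO PBS 4, which was highest for *S100a8*, *Elane*, *Chil3* and *Ngp* alike, is 1 of these 9 points, and the values are a description with no test. The ratio of *Ly6c2* to *Plac8* counts was 1.40 ± 0.44 (SD, n = 4) in wildtype mice at baseline, 0.72 ± 0.58 (n = 5) in KO mice at baseline, and 0.62 ± 0.07 and 0.60 ± 0.17 (n = 5 each) in wildtype and KO mice after LPS. The baseline ratios rest on 3 to 62 reads of *Ly6c2* and 6 to 38 of *Plac8* per library. They ran from 1.00 to 2.00 in wildtype and from 0.25 to 1.63 (KO PBS 4) in KO mice, so the genotypes overlapped. *Alas2*, an enzyme of heme synthesis in red cell precursors, had 601 reads in wildtype LPS 3, against 1 to 101 in the other 18 libraries. Without KO PBS 4, wildtype LPS 3 and KO LPS 5, 7 markers rose in wildtype and 8 in KO mice, an alternative added after seeing the data.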
